A study of Mus musculus with 8 samples.

Results

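Arterial endothelial cells line the vessels that carry blood from the right heart into the lung. They were taken here as the cells with the deposited type name EC_arterial. This name was carried by 730 of 41106 cells, of which 514 came from 4 mice exposed to cigarette smoke (CS) and 216 from 4 mice kept in room air (RA). CS mice 1 to 4 gave 84, 95, 173 and 162 arterial cells, and RA mice 1 to 4 gave 58, 70, 48 and 40. The mouse was the unit of every comparison.

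All 8 mice were Sftpc-CreERT2-mTmG animals on C57BL/6, in which tamoxifen switches a reporter from tdTomato to eGFP in cells that express Sftpc, the surfactant gene of alveolar type 2 (AT2) cells; endothelial cells are not the target of this Cre. Tamoxifen was given at 8 to 10 weeks of age on 4 days, and from 2 weeks later littermates were kept for 10 months in smoke of research cigarettes (6 h a day, 5 days a week) or in room air, with 2 mice labelled male and 2 labelled female in each group. Cells of enzyme-digested right lungs were mixed as 10% CD45+ and 90% CD45- cells, 1 day after the last exposure. Each of 4 sequencing lanes held 1 CS and 1 RA library.

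Arterial endothelium differs from that of veins and capillaries in its genes as well as its place. Signals through Notch receptors set up and hold the arterial state, and the same cells carry gap junction proteins of the connexin family, the guidance ligand Efnb2 and parts of the elastic fibre. Flow induces Kruppel-like factors in them, and they pass signals for contraction and relaxation to the muscle around them. As secreting cells they also depend on the chaperones of the endoplasmic reticulum (ER), which fold newly made membrane and secreted proteins.

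Values were counts of unique molecular identifiers (UMIs, each standing for a captured transcript) after removal of the estimated free RNA. Levels are given as the mean number of transcripts per 10,000 over the arterial cells of a mouse, and differences as CS minus RA on the log2(level + 1) scale with their standard error (SE). This scale understates the change of genes with low levels. In bulk or mean values such as these, a change in the make-up of the cells and a change within each cell cannot be told apart. Median UMIs per arterial cell ranged from 4267 to 5406 in CS mice and from 4001 to 7061 in RA mice (exact two-sided permutation over mice, p = 0.686, n = 4 and 4). The median mitochondrial share was 0.600% to 1.06% in CS mice and 0.808% to 1.15% in RA mice (exact permutation p = 0.143, n = 4 and 4).

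Sex transcripts went against the labels in each CS library. Xist, transcribed from the inactive X of females, stood at 10.3 and 10.3 in the CS libraries labelled male (mice 1 and 2) and at no more than 0.00754 in those labelled female (mice 3 and 4). Ddx3y, from the Y chromosome, stood at 1.01 and 1.21 in the latter. In RA libraries both transcripts followed the labels. The exposure label was not checked by a gene. Cyp1a1, a target of the receptor that senses compounds of smoke, was found in too few arterial cells to be tested. Barcodes found in more than 1 library numbered 197, and 3 arterial cells carried one.

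The marker genes of the type were at their highest mean level in arterial cells among the 28 types that had at least 20 cells in a mouse. Gja5, which codes for connexin 40, averaged 1.51 transcripts per 10,000 in arterial cells, against 0.810 in alveolar fibroblasts and 0.0942 in general capillary (gCap) cells. Dkk2, a secreted regulator of Wnt signalling, averaged 0.530, against 0.243 in goblet cells and 0.0308 in venous endothelium. Cxcl12, the chemokine ligand of Cxcr4, averaged 8.08, against 4.96 in adventitial fibroblasts and 4.41 in gCap cells. The order changed when cells with a transcript were counted instead. Gja5 was again first, with 43.7% of arterial cells, but Dkk2 (13.2%) came behind goblet cells (30.4%) and Cxcl12 (61.5%) behind adventitial fibroblasts (82.5%). In B cells, which should lack all of them, the shares of Gja5, Dkk2 and Cxcl12 were 0.469%, 0.131% and 1.30%, at a median depth of 4055 UMIs against 4691 in arterial cells. At least 1 of the 3 transcripts was found in 576 arterial cells (78.9%), and in 60.4% to 90.5% of those of a single mouse. The cells had been named from clusters of the same data, so these levels are a description.

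**Figure D1:**
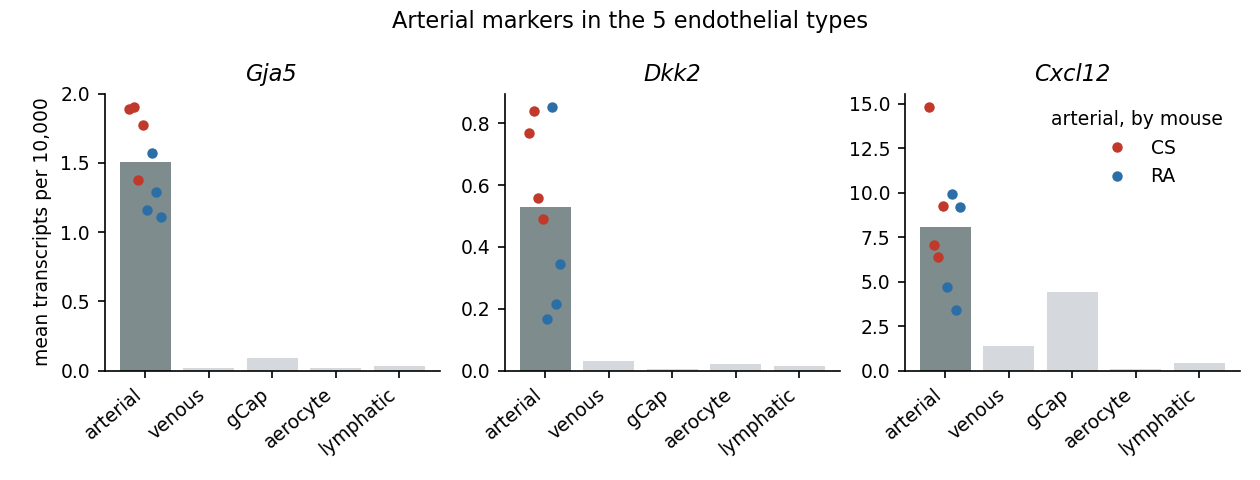
Mean transcripts per 10,000 (vertical axis) of Gja5, Dkk2 and Cxcl12 in the 5 endothelial types, as the mean over mice with enough cells of the type (bars), with each mouse's arterial level as a point (red CS, blue RA). Gja5 and Dkk2 stood near 0 in the other endothelial types, whereas Cxcl12 also reached 4.41 in gCap cells.

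Other genes set the type apart by more. The ratio of the arterial mean to the highest mean in any other type of at least 100 cells was largest for Olfm2, a secreted olfactomedin, at 27.8, with levels from 1.31 to 4.32 over the 8 mice. Esr2, the gene of oestrogen receptor beta, followed at a ratio of 14.4, with an arterial mean of 3.98 and levels from 1.73 to 6.27. The ratio was 8.87 for the kinase gene Stk32a and 4.92 for the transporter gene Slc45a4. It lay between 2.32 and 2.95 for Atp13a3, Pde1c, Cdh13, Fam135a, Plxnd1 and Plat. Plat codes for tissue plasminogen activator, which starts the dissolution of clots, and it averaged 9.34 in arterial cells against 4.02 in gCap cells.

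The type was not uniform. When the 730 cells were divided in 2 by k-means on their variable genes, 468 cells fell in a group led by Mgp, Cytl1, Cdh13 and Vcam1 and 262 in a group led by Adgrl3, Aff3, Gpihbp1 and Cd36, with a mean silhouette of 0.295 and median depths of 5230 and 4213 UMIs. Mgp, an inhibitor of vessel calcification, averaged 71.0 transcripts per 10,000 in the first group and 2.15 in the second. Gpihbp1, the capillary anchor of lipoprotein lipase, averaged 0.972 and 10.7. The marker genes divided too. Dkk2 was at 0.871 in the first group and 0.0245 in the second, Cxcl12 at 3.44 and 16.8, and Gja5 at 1.62 and 1.49. Dll4, a Notch ligand of arteries, was at 3.52 and 3.63. The first group held 58.6% to 70.5% of a CS mouse's cells and 57.1% to 81.0% of an RA mouse's, and these ranges overlapped. As the division was made from the same values, these levels carry no test.

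Transcripts of other cell types were present in the arterial cells of some mice. The summed level of 6 airway markers was 21.4, 27.5, 108 and 2.27 in CS mice 1 to 4 and 0.496 to 8.49 in RA mice. More than 100 transcripts per 10,000 of the club cell gene Scgb1a1 were found in 11 of the 730 cells, and its mean was 31.5 with and 0.818 without them. The sum of 6 AT2 markers was 8.41 in RA mouse 3 and at most 1.61 in the others. The 5 erythrocyte markers summed to 21.3 in RA mouse 1 and at most 2.83 in the others. Of 8 immune markers the sum was 0.309 to 0.902 in CS mice and 0.229 to 3.43 in RA mice, highest in RA mouse 3, and of 4 neutrophil markers 0.0233 to 0.216 and 0 to 0.479. Sums for 7 fibroblast markers were 0.0766 to 0.493 and 0 to 0.205, for 7 pericyte markers 0.266 to 0.353 and 0.251 to 0.699, for 7 smooth muscle markers 0.838 to 3.24 and 0.409 to 2.37, and for 5 alveolar type 1 markers 0.574 to 0.978 and 0.254 to 0.747. Markers of the other endothelial types were found at higher sums, at 22.6 to 25.4 and 24.4 to 34.1 for 7 gCap markers, 40.5 to 46.8 and 39.5 to 51.0 for 7 venous markers, 11.6 to 17.0 and 14.3 to 18.6 for 5 lymphatic markers and 1.92 to 2.56 and 1.19 to 1.83 for 7 aerocyte markers. The aerocyte sums of the groups did not overlap. Of the markers, Cxcl9, Cnn1 and Cd3e were at 0 in all 8 mice. The part of such transcripts in the differences below was not tested one by one. Without cells that held Scgb1a1, Sftpc, Ptprc or Hbb-bs, chosen after seeing the data, 49 genes differed between CS and RA, of which 39 were among the 53 called below. The reporter eGFP was found in 70.6% of arterial cells in CS and 59.6% in RA, as means over mice, at mean levels of 3.87 and 2.76 (limma, adjusted p = 0.288). The level of tdTomato was 1.44 in CS and 2.13 in RA (limma, adjusted p = 0.191), at 0.817 to 1.81 and 2.08 to 2.20 over mice, without overlap. It was found in 45.8% of cells in CS and 54.2% in RA. More arterial cells thus held eGFP than tdTomato, though endothelial cells are not the target of this Cre. The source of these eGFP transcripts was not tested.

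The first comparison asked whether smoke was accompanied by a different share of arterial cells. Arterial cells made up 5.94%, 5.20%, 6.19% and 5.75% of the endothelial cells of CS mice 1 to 4. In RA mice 1 to 4 they made up 1.87%, 2.57%, 2.91% and 4.99%. The lowest CS value was just above the highest RA value, that of RA mouse 4. The means were 5.77% ± 0.423 and 3.08% ± 1.34 (SD, n = 4 each), a ratio of 1.87, with p = 0.0286 by exact two-sided permutation, the smallest that 4 against 4 mice allow. Adjusted over the 5 measures compared this way it was 0.143. The CS mouse was higher in all 4 lanes. Exact 95% binomial intervals, which cover counting error only, ran from 4.22% to 6.32% in CS mouse 2 and from 3.59% to 6.73% in RA mouse 4, which overlap.

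CD45-negative cells were taken here by type name, as all cells not named as an immune type or erythrocyte, and not by sorted fraction. Against all of these cells the groups overlapped. The arterial share was 3.72%, 2.42%, 3.86% and 3.66% in CS mice 1 to 4 and 1.05%, 1.39%, 1.32% and 2.51% in RA mice 1 to 4, so that CS mouse 2 lay below RA mouse 4 (exact permutation p = 0.0571, n = 4 and 4). Endothelial cells numbered 802 in RA mouse 4 and 1415 to 3102 in the others. The gCap share of endothelial cells was 44.7% to 60.1% in CS mice and 50.2% to 66.9% in RA mice, and the venous share 6.67% to 14.2% and 6.86% to 12.0%. A share rises when another type falls, and recovery by digestion cannot be told apart from abundance in the lung.

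**Figure D2:**
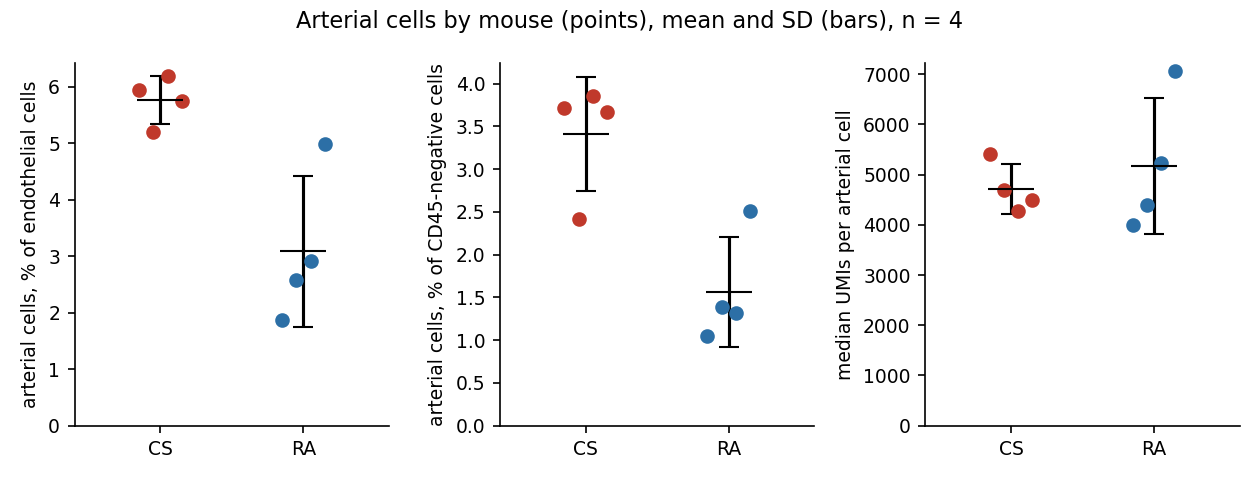
Arterial cells as a percentage of endothelial cells and of CD45-negative cells, and median UMIs per arterial cell, for each mouse (points) with the group mean and SD (bars, n = 4). The share of endothelial cells was 5.20% to 6.19% in CS mice and 1.87% to 4.99% in RA mice, while depth overlapped.

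The second comparison asked which genes differed between CS and RA arterial cells. Among the genes that rose in CS were Fryl, Lrmda and 2 members of the clock output list, Dbp and Tef. Among those that fell were Tinagl1, Anxa2, Hspa8 and 6 members of the ER chaperone list. Of 8022 genes tested with limma, 53 (0.661%) passed an adjusted p of 0.05 (Benjamini-Hochberg), 27 higher (0.337%) and 26 lower (0.324%) in CS. At an unadjusted p under 0.05 there were 1175 genes (14.6%). The groups of mice did not overlap for 52 of the 53, against 8.76% of all genes tested, and all 53 had the same direction in each of the 4 lanes, against 21.4%, both of which a called gene would largely meet. The count of calls was smaller without any 1 CS mouse, at 10 without CS mouse 1 or CS mouse 2, 24 without CS mouse 3 and 7 without CS mouse 4, and it was 82 without RA mouse 3. With lane as a block there were 35, of which 31 were among the 53. There were 2 calls with no filter on detection and 3 in cells without transcripts of Ptprc, Acta2, Col1a1 and Gpihbp1, where RA mouse 4 had too few cells to be used, but 147 in cells with a transcript of Gja5, Dkk2 or Cxcl12. Genes had to be found in 10% of cells of CS or of RA, and 5 of the 53 (Scn7a, Angpt2, Esr1, Sdf2l1 and Zbtb7c) reached this only in the group where they were high, so that they had to differ to be tested.

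The called genes also differed in length. The genes higher in CS spanned a median of 207 kb of the genome, those lower in CS 8.48 kb, and all genes tested 28.7 kb. Transcripts of the 1311 tested genes of 100 kb or more summed to 2667 to 2927 per 10,000 in CS mice and 2160 to 2597 in RA mice, without overlap (exact permutation p = 0.0286, n = 4 and 4). This sum was not a planned comparison, its p is not adjusted, and it includes the called genes of that length. Per the study's methods, transcripts were counted from reads of both spliced and unspliced RNA. The part of this shift in the single genes was not tested. Malat1, an abundant RNA of the nucleus, had 253 to 276 in CS mice and 277 to 339 in RA mice (adjusted p = 0.312 by limma).

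**Figure D3:**
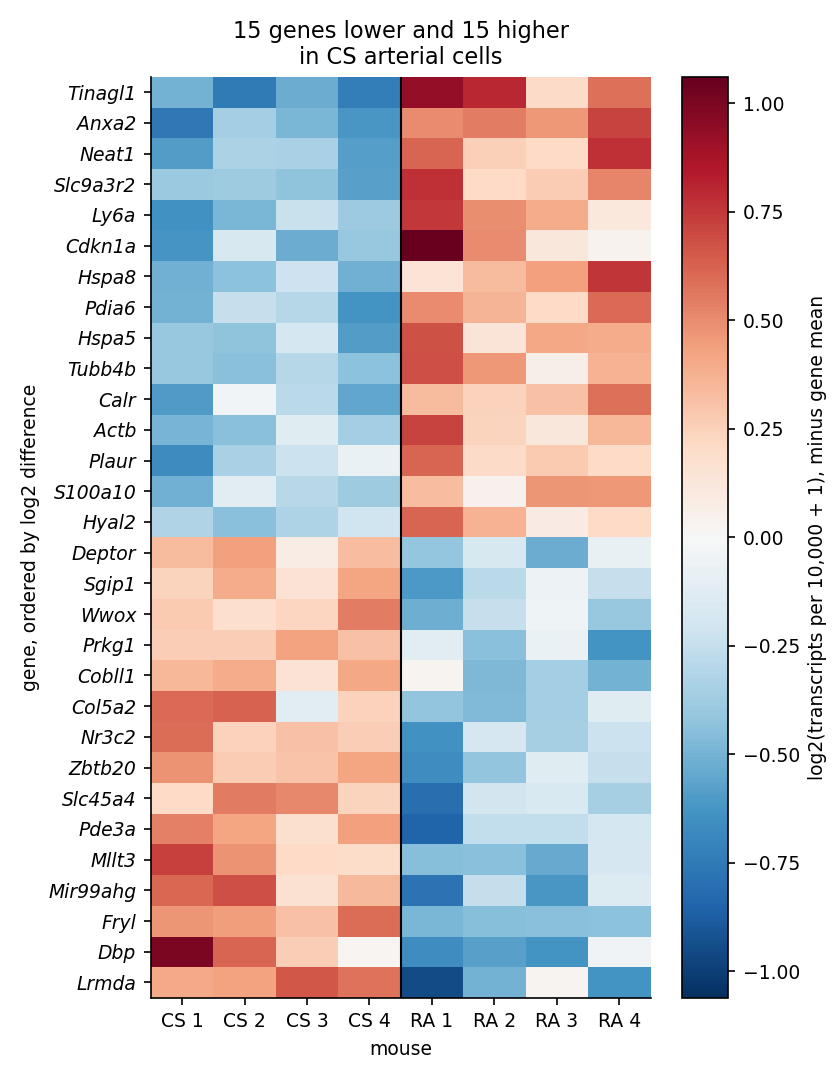
The 15 called genes with the largest difference in each direction among those whose groups did not overlap (rows), in each mouse (columns, CS 1 to 4 and RA 1 to 4); colour is the log2(level + 1) minus the gene's mean over mice. Tinagl1 had the largest difference among lower genes (-1.26) and Lrmda among higher ones (1.03).

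Tinagl1, a secreted protein of the extracellular matrix, fell the most. Its level was 3.43, 2.73, 3.35 and 2.78 transcripts per 10,000 in CS mice 1 to 4, and 11.0, 9.90, 6.23 and 8.42 in RA mice 1 to 4. Every CS mouse lay well below each RA mouse, with a difference of -1.26 ± 0.16 (log2, SE; adjusted p = 0.00161). Anxa2, the gene of annexin A2, had 2.62, 3.78 and 3.40 in CS mice 1 to 3, with CS mouse 4 between CS mice 1 and 3, and 7.69, 7.96, 7.42 and 9.11 in RA mice 1 to 4, a difference of -1.11 ± 0.13 (adjusted p = 0.00161). It passed the threshold in all 22 alternatives.

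Annexin A2 forms a complex with S100a10 that gathers plasminogen and its activator on the endothelial surface, and the gene of this partner fell as well, with 1.14 to 1.81 in CS mice and 2.14 to 3.21 in RA mice (-0.65 ± 0.13, adjusted p = 0.0278). Plaur, the receptor of the urokinase-type activator, had 1.24, 1.81, 2.03 and 2.38 in CS mice 1 to 4 and 4.44, 3.08, 3.31 and 3.11 in RA mice 1 to 4 (-0.65 ± 0.14, adjusted p = 0.0466). It lost the threshold whichever mouse was left out and with lane as a block (adjusted p = 0.105 by limma). Plat, the gene of the other, tissue-type activator, did not pass (-0.28 ± 0.17, adjusted p = 0.479 by limma). These genes were set side by side after their values had been seen.

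The ER chaperones were 1 of 26 gene lists, and the one with the most called members. The list also holds 4 genes of the stress response that are no chaperones, Xbp1, Atf4, Ddit3 and Herpud1. Of its 21 members tested, 6 fell, none rose and 15 did not pass, against 0.324% of all genes called lower. Sdf2l1, among the 6, passed the detection filter only through RA mice and so had to differ to be tested. The list and its members were chosen with earlier results of these data known. All 21 differences were below 0, with a median of -0.31, where the median over all genes tested was 0.0031. Hspa5, the ER member of the Hsp70 family known as BiP, had 4.55, 4.46, 5.46 and 3.88 transcripts per 10,000 in CS mice 1 to 4. In RA mice 1 to 4 it had 10.7, 7.08, 8.76 and 8.65, and the groups lay apart (-0.81 ± 0.15, adjusted p = 0.0245). Pdia6, a disulphide isomerase, had 1.15, 1.56, 1.46 and 0.963 in CS mice and 3.29, 2.91, 2.52 and 3.61 in RA mice (-0.84 ± 0.13, adjusted p = 0.00844). Calr, the calcium-binding lectin chaperone calreticulin, had 2.24, 3.83, 3.03 and 2.36 in CS mice and 5.21, 4.83, 5.10 and 6.38 in RA mice (-0.74 ± 0.15, adjusted p = 0.0278). No CS mouse reached the lowest RA mouse for any of the 3 genes.

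The other called members were Manf, a small protein secreted under ER stress (-0.60 ± 0.13, adjusted p = 0.0353), the collagen chaperone Serpinh1 (-0.58 ± 0.11, adjusted p = 0.0259) and Sdf2l1, a partner of Hspa5 (-0.33 ± 0.066, adjusted p = 0.0278). Levels of Sdf2l1 were low, at 0.120 on average in CS and 0.411 in RA, and it passed the detection filter only through RA mice (24.8% of cells against 7.93%). With lane as a block 4 of the 6 passed, without Calr (adjusted p = 0.0671) and Sdf2l1 (0.0802). Members that missed the threshold included Dnajb11 (adjusted p = 0.0522), Hsp90b1, the ER form of Hsp90 (3.88 ± 0.173 in CS and 5.82 ± 0.744 in RA, SD, n = 4; adjusted p = 0.0957 by limma), and Pdia3 (adjusted p = 0.186). The list had 0 calls with no filter on detection and in cells without Ptprc, Acta2, Col1a1 and Gpihbp1 (3 mice of RA), where 18 of 21 differences were below 0, and 8 in cells with a marker transcript. It had 1 call without CS mouse 1 or CS mouse 4, 2 calls without CS mouse 2 or CS mouse 3 and 3 without RA mouse 4. In the k-means division above, Hspa5 averaged 7.47 in the first group of arterial cells and 2.94 in the second.

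A sequence known as the ER stress element, through which unfolded proteins raise the transcription of chaperones, lies near the start of several of these genes. CCAAT and CCACG with 9 bases of any kind between them were searched on both strands of the RefSeq promoters (GRCm38.p6), from 250 bases before to 50 after each gene's start, and were found in 0.119% of 32851 of them. They stood in 7 of the 19 list members with a promoter in that table, among which Hspa5, Calr and Pdia6 were called lower. The stretches below are shown because they carry the element in genes that fell, 5′ to 3′ on the gene's strand with the match in capitals.
Hspa5: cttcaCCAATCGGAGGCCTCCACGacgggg
Calr: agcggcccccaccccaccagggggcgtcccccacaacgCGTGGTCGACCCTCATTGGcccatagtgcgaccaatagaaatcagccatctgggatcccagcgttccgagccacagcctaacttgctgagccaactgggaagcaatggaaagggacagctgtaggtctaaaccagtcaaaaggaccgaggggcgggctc
Pdia6: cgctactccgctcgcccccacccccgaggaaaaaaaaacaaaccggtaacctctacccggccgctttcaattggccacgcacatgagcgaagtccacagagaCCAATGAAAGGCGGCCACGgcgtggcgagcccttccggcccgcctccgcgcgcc
They lie at chr2:34772020-34772049 (plus strand), chr8:84846935-84847131 (minus strand) and chr12:17266389-17266544 (plus strand). The match began 65, 162 and 98 bases before the RefSeq start, and in Calr it was read on the opposite strand. The GENCODE annotation begins Hspa5 120 bases further upstream, so that its match lies inside the first exon there, and Pdia6 44 bases further upstream. Hsp90b1, Canx, Dnajc3 and Creld2 had a match and were not called, and Sdf2l1 and Serpinh1 were called and had none in this window. A match in the letters is a description and not a site of binding.

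Of 22 cytosolic chaperones tested, 1 fell, none rose and 21 did not pass, against 0.324% of all genes called lower, with a median of -0.15. The member that fell was Hspa8, the constitutive Hsc70, with 4.77, 5.09, 6.06 and 4.78 in CS mice 1 to 4 and 8.12, 9.41, 10.1 and 13.0 in RA mice 1 to 4 (-0.84 ± 0.15, adjusted p = 0.0220). Its groups lay apart. Hsp90ab1 had 12.2 ± 1.27 in CS and 18.3 ± 2.37 in RA (SD, n = 4; adjusted p = 0.0914 by limma), and the small heat shock gene Hspb1 had an adjusted p of 0.0773. The stress-inducible Hspa1a, whose reads are hard to tell from those of its close copy Hspa1b, was 8.06 to 15.5 in CS and 4.34 to 14.5 in RA. All 8 subunits of TRiC, the chaperonin that folds actin and tubulin, had a difference below 0 and none passed (median -0.18; 4 at an unadjusted p under 0.05, against 14.6% of all genes tested).

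Actb, cytoplasmic beta-actin, fell, with 14.1 to 18.4 in CS mice and 22.2 to 34.0 in RA mice (-0.71 ± 0.15, adjusted p = 0.0448). Tubb4b, at 0.864 to 1.05 in CS against 1.64 to 3.05 in RA, was the called tubulin with the largest difference (-0.79 ± 0.12, adjusted p = 0.0119). Tubb5 (-0.55 ± 0.11) and Tuba1b (-0.46 ± 0.10) passed as well. With lane as a block Actb (adjusted p = 0.117), Tubb5 (0.0836) and Tuba1b (0.0914) did not pass. Actin and tubulin genes have close copies among which reads may have been split. Ly6a, the surface protein Sca-1, had 12.9, 14.5, 17.4 and 15.6 in CS mice 1 to 4 and 35.4, 29.6, 27.5 and 22.4 in RA mice 1 to 4 (-0.88 ± 0.16, adjusted p = 0.0219). Cdkn1a, which codes for the cell cycle inhibitor p21, had 2.26 to 3.46 in CS and 4.15 to 9.48 in RA (-0.86 ± 0.19, adjusted p = 0.0484). It was the one called gene among 12 tested of the p53 and senescence list, against 0.324% of all genes called lower, and did not pass with lane as a block (adjusted p = 0.0919). Neat1, the RNA that builds paraspeckles, differed by -0.93 ± 0.16, adjusted p = 0.0135, but did not pass without cells that held Scgb1a1, Sftpc, Ptprc or Hbb-bs (-0.63, adjusted p = 0.128) or with 40 cells drawn per mouse (-0.77, adjusted p = 0.0799). Cdkn1a (0.0510), S100a10 (0.0829) and Col5a2 (0.0654) also had an adjusted p over 0.05 without the former cells. The difference was -0.89 for the membrane scaffold Slc9a3r2 (adjusted p = 0.0119) and -0.64 for the hyaluronidase Hyal2 (adjusted p = 0.0259).

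Among genes higher in CS, Fryl, a large protein of the furry family, had the smallest p. It stood at 6.76, 6.63, 5.93 and 7.45 in CS mice 1 to 4 and at 3.09, 3.12 and 3.14 in RA mice 2 to 4, with RA mouse 1 just below the lowest of these, a difference of 0.91 ± 0.12 (adjusted p = 0.00305) that passed in all 22 alternatives. Lrmda, a gene of 1036 kb named for melanocyte differentiation, had 4.07, 4.16, 5.05 and 4.71 in CS mice 1 to 4 and 0.985, 1.71, 2.92 and 1.48 in RA mice 1 to 4 (1.03 ± 0.17, adjusted p = 0.0119). The groups were apart for both genes.

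Of the 11 clock output genes tested, 2 rose, none fell and 9 did not pass, against 0.337% of all genes called higher, with a median of 0.26. These are genes whose transcription follows the hour through the factors Clock and Arntl. Dbp had 3.01, 2.08, 1.41 and 1.03 in CS mice 1 to 4 and 0.272, 0.344, 0.293 and 0.948 in RA mice 1 to 4 (0.95 ± 0.18, adjusted p = 0.0259). The lowest CS mouse and the highest RA mouse, both mouse 4 and both from one lane, were close. Tef, of the same family of factors, had 1.14 to 1.75 in CS and 0.400 to 0.775 in RA (0.57 ± 0.11, adjusted p = 0.0259). Hlf, the other member of that family, did not pass (adjusted p = 0.118), nor did Nr1d1 (0.176) or Per1 (0.334). Of 4 genes of opposite phase tested none passed, where 0.661% of all genes did. Their differences were above 0 for 3 and below 0 for 1, with a median of 0.044. At an unadjusted p under 0.05 there were 2, 1 higher and 1 lower in CS, against 14.6% of all genes tested. Arntl itself was 0.0266 to 0.243 in CS and 0.354 to 0.542 in RA, without overlap (adjusted p = 0.0839). The hour of harvest is not given in the sources used here, and its part was not tested.

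Among the single genes that rose, Pde3a, a phosphodiesterase that breaks down cyclic AMP, had 26.5, 24.4, 20.4 and 24.8 in CS mice 1 to 4 and 9.56, 14.9, 14.9 and 15.7 in RA mice 1 to 4 (0.78 ± 0.16, adjusted p = 0.0351). Prkg1, the kinase that nitric oxide activates through cyclic GMP, had 86.8 to 97.5 in CS and 46.1 to 68.8 in RA (0.63 ± 0.14, adjusted p = 0.0448). The groups were apart for both genes. Nr3c2, the mineralocorticoid receptor, had 3.71 to 5.01 in CS and 1.55 to 2.51 in RA (0.70 ± 0.14, adjusted p = 0.0259). With lane as a block Pde3a (adjusted p = 0.105), Prkg1 (0.119) and Nr3c2 (0.0684) did not pass. Esr1, oestrogen receptor alpha, had 0.306, 0.424, 0.200 and 0.205 in CS mice 1 to 4 and 0.0237, 0.0247, 0.0451 and 0.0275 in RA mice 1 to 4 (0.31 ± 0.061, adjusted p = 0.0259). The 2 highest CS values came from the libraries that held Xist, whereas in RA the 2 lowest values did. Esr1 passed the detection filter only through CS mice (13.8% of cells against 2.29% in RA). Pde3a, Prkg1, Nr3c2 and Esr1 span 258, 1201, 346 and 394 kb. The part of the shift of long genes in their differences was not tested. Of 18 vasomotor genes tested none passed, where 0.661% of all genes did, and 14 had a difference below 0, with a median of -0.15. At an unadjusted p under 0.05 there were 7, all lower in CS, or 38.9% against 14.6% of all genes tested and 33.3% of pan-endothelial genes. Among them Ptgs2, a cyclooxygenase, had 0.00840 to 0.328 in CS and 0.417 to 1.63 in RA (adjusted p = 0.0642), and Nos3, the endothelial nitric oxide synthase, 0.876 to 1.56 and 1.39 to 2.80 (adjusted p = 0.171).

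Of the vessel growth factors and receptors (VEGF, angiopoietin and apelin), 1 of 11 tested rose and 10 did not pass, against 0.337% of all genes called higher, with a median of 0.23. The member that rose was Angpt2, the ligand that opposes angiopoietin 1 at the receptor Tek, with 0.355, 0.771, 0.472 and 0.489 in CS mice 1 to 4 and 0.185, 0.0903, 0.155 and 0.0342 in RA mice 1 to 4 (0.44 ± 0.085, adjusted p = 0.0259). These are levels under 1 transcript per 10,000, and Angpt2 passed the detection filter only through CS mice (16.1% of cells against 6.99% in RA). Angpt2 thus had to differ to be tested, so the list's count cannot be read against the share over all genes. Tek itself had 7.15 ± 0.460 and 6.83 ± 1.69 (SD, n = 4; adjusted p = 0.854 by limma), and Flt1, a receptor of Vegfa, 16.4 to 20.6 and 13.8 to 15.7 (adjusted p = 0.331).

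In the elastic fibre and matrix list 1 of 26 tested rose and 25 did not pass, against 0.337% of all genes called higher. Fbn1, fibrillin 1 of the microfibrils around elastin, had 1.60, 1.91, 1.36 and 1.68 in CS mice 1 to 4 and 0.619, 0.813, 0.965 and 0.847 in RA mice 1 to 4 (0.54 ± 0.11, adjusted p = 0.0259). Eln, elastin itself, had 3.72 ± 0.901 in CS and 4.62 ± 1.56 in RA (SD, n = 4; adjusted p = 0.586 by limma). Col5a2, a chain of a fibrillar collagen and no member of the list, rose by 0.68 ± 0.15 (adjusted p = 0.0466).

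Of 29 tested members of the arterial identity list none passed, where 0.661% of all genes did. An unadjusted p under 0.05 was found for 10 of them (9 higher in CS), or 34.5%. This share was 14.6% over all genes tested, but 33.3% in the list of pan-endothelial genes. Of the 29 members, 23 had a difference above 0 and the median was 0.21. Slc45a4, which is no member of the list but is 1 of the 10 genes with the largest arterial ratio above, rose, with 3.41, 4.58, 4.39 and 3.46 in CS mice 1 to 4 and 1.18, 2.33, 2.40 and 1.97 in RA mice 1 to 4 (0.75 ± 0.15, adjusted p = 0.0278). The other 9 of those genes did not pass. Within the list Efnb2 had the smallest p, with 9.83, 10.9, 8.69 and 10.0 in CS mice 1 to 4 and 4.72, 7.46, 5.73 and 6.73 in RA mice 1 to 4 (0.61 ± 0.15, adjusted p = 0.0707); the groups did not overlap. Mecom, a transcription factor of arterial endothelium, had 20.6 to 26.8 in CS and 15.1 to 20.2 in RA (adjusted p = 0.173). Gja5 had 1.89, 1.90, 1.38 and 1.78 in CS mice and 1.16, 1.57, 1.29 and 1.11 in RA mice (0.26 ± 0.11, adjusted p = 0.290), and its groups overlapped. Dkk2 had 0.665 ± 0.167 and 0.396 ± 0.314 (SD, n = 4; adjusted p = 0.331 by limma), and Cxcl12 9.36 ± 3.84 and 6.80 ± 3.24 (adjusted p = 0.471); for both the groups overlapped. Of 21 Notch genes none passed (median 0.061; 4 at an unadjusted p under 0.05), with Notch1 at 4.89 to 5.21 and 3.54 to 4.44 (adjusted p = 0.335) and Dll4 at an adjusted p of 0.560.

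The Kruppel-like factors, which flow induces in endothelium, had none of 8 called, where 0.661% of all genes were, and 7 differences below 0. An unadjusted p under 0.05 was found for 3, all lower in CS, or 37.5% against 14.6% of all genes tested and 33.3% of pan-endothelial genes. Klf2 had 12.1, 11.6, 14.4 and 13.9 in CS mice 1 to 4 and 21.0 ± 3.77 in RA mice (SD, n = 4; difference -0.64 ± 0.15, adjusted p = 0.0642 by limma). Klf4 had 8.23 ± 1.90 and 12.8 ± 1.35 (SD, n = 4; adjusted p = 0.0881 by limma). For both genes the groups did not overlap. The immediate early genes, which dissociation of tissue also induces, had none of 18 called, a median of -0.22 and 7 members at an unadjusted p under 0.05 (6 lower in CS), or 38.9%, with Fos at 5.64 to 10.9 and 8.39 to 14.4 (adjusted p = 0.164) and Jun at 14.3 to 18.1 and 18.1 to 23.9 (adjusted p = 0.277).

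**Figure D4:**
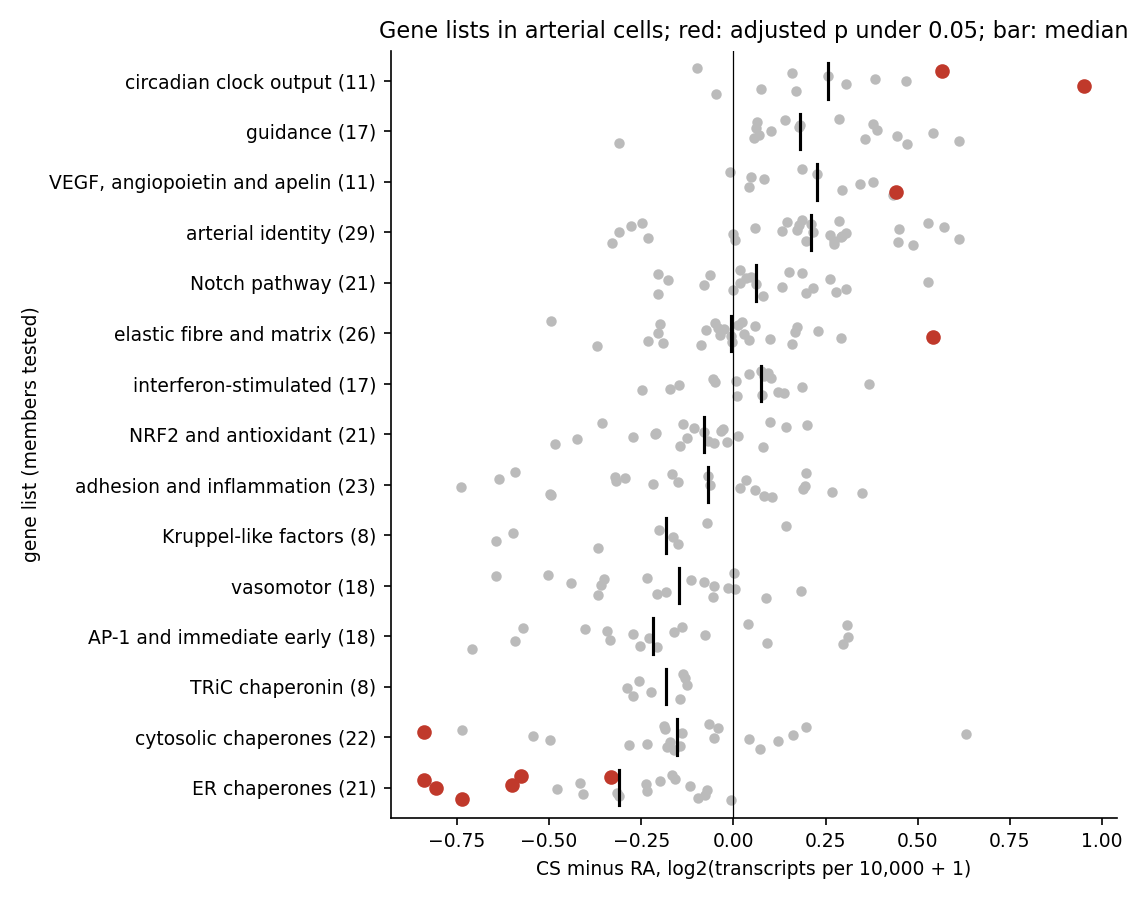
CS minus RA difference, on the log2(transcripts per 10,000 + 1) scale, of each tested member of the gene lists drawn, in arterial cells (points; red where the adjusted p was under 0.05), with the list's median (bar). Every ER chaperone point lay below 0, with a median of -0.31, and clock output genes lay mostly above, at 0.26.

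In lists of inflammation and defence no member passed, where 0.661% of all genes did. At that share, lists of these sizes need not hold any call, and the same holds for the lists above without one. The lists held 23 adhesion and inflammation genes (median -0.069), 7 chemokines and receptors (-0.11), 17 interferon-stimulated genes (0.076), 17 genes of MHC class I (-0.0064) and 6 of class II (0.19). At an unadjusted p under 0.05 there were 8 adhesion and inflammation genes (6 of them lower in CS), 3 chemokines and receptors and 1 in each of the other lists, against 14.6% of all genes tested. Vcam1, an adhesion receptor for leukocytes, had 4.16 to 11.5 in CS and 8.46 to 19.8 in RA (adjusted p = 0.298), and Nfkbia, an inhibitor of NF-kB, 8.14 ± 1.57 and 14.6 ± 4.37 (SD, n = 4; adjusted p = 0.0876 by limma). Likewise no member passed among 21 NRF2 and antioxidant genes (-0.080) and 3 genes around the aryl hydrocarbon receptor (0.28), which senses compounds of smoke. Cyp1a1, a well-known target of that receptor, was found in too few arterial cells to be tested, at 0.256 ± 0.180 in CS and 0.254 ± 0.130 in RA (SD, n = 4). No member was called among 17 genes of BMP and TGF-beta signalling (0.12), 17 of guidance (0.18), 9 of lipid uptake (-0.0069), 2 cold-inducible genes (0.13) and 12 pan-endothelial genes (0.027). At an unadjusted p under 0.05 there were 8 guidance genes (47.1%, 7 higher in CS) and 5 of BMP and TGF-beta signalling (29.4%, 4 higher). The pan-endothelial list had 4 (33.3%). There were also 4 NRF2 and antioxidant, 2 aryl hydrocarbon receptor, 2 lipid uptake and 1 cold-inducible genes. Of 13 tested in a list of glucocorticoid targets, which also holds the corticoid receptors Nr3c1 and Nr3c2, the receptor Nr3c2 rose, Cdkn1a fell and 11 did not pass (-0.092), against 0.337% of all genes called higher and 0.324% lower.

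The third set of comparisons asked whether the CS minus RA difference in arterial cells was itself different from that in other endothelial cells of the same mice. It was larger in arterial cells than in aerocytes, the large capillary cells of gas exchange, for Fryl and Atp2b1, 2 of 8454 genes (0.0237%; limma, adjusted p; 724 at an unadjusted p under 0.05). Against venous cells 0 of 8513 genes passed (0.0%; limma; 570 unadjusted), and against gCap cells 0 of 8230 (0.0%; limma; 821 unadjusted). The gCap count was 2 with lane as a block, 5 for genes found in 25% of cells and 16 without RA mouse 4. Within each type, CS differed from RA for 10 of 7840 genes in venous cells (0.128%), 725 of 6712 in gCap cells (10.8%) and 141 of 6925 in aerocytes (2.04%), all of them more numerous than arterial cells. All these comparisons use the same mice. In the contrasts between types, limma's variance trend was fitted on the mean difference between the types and not on the level. Genes far apart in level between types could get a large SE, and the counts may miss them. For Prkg1 the contrast with venous cells had an SE of 4.84, where its own SE was 0.14 in arterial and 0.26 in venous cells.

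Fryl averaged 1.08 in aerocytes of CS mice and 1.09 in those of RA mice, a difference of -0.0073 ± 0.066 against 0.91 ± 0.12 in arterial cells. The difference between the types was 0.92 ± 0.11 (adjusted p = 0.0157). In venous cells Fryl differed by 0.41 ± 0.10 and in gCap cells by 0.40 ± 0.088, and the contrasts with arterial cells had adjusted p of 0.534 and 0.109. Atp2b1, the calcium pump of the plasma membrane, had 7.28, 7.83, 5.41 and 6.33 in arterial cells of CS mice 1 to 4 and 3.32, 4.19, 4.99 and 3.74 in those of RA mice 1 to 4, which alone did not pass (adjusted p = 0.0691). In aerocytes it averaged 7.10 and 7.54, and the types differed by 0.68 ± 0.10 (adjusted p = 0.0352). No gene passed against aerocytes with a pseudocount of 0.25, in cells thinned to 2000 UMIs, or without CS mouse 1, CS mouse 2, CS mouse 4 or RA mouse 2.

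For the chaperones the values can be set side by side. Hspa5 differed by -0.81 ± 0.15 in arterial, -0.62 ± 0.15 in venous, -0.78 ± 0.15 in gCap cells and -0.59 ± 0.14 in aerocytes. In the same order Calr differed by -0.74 ± 0.15, -0.77 ± 0.13, -0.64 ± 0.087 and -0.59 ± 0.083, and Pdia6 by -0.84 ± 0.13, -0.65 ± 0.10, -0.63 ± 0.083 and -0.51 ± 0.068. Hspa8 differed by -0.84 ± 0.15, -0.55 ± 0.13, -0.96 ± 0.11 and -0.98 ± 0.12. Of called genes outside the chaperones, Cdkn1a differed by -0.86 ± 0.19, -0.95 ± 0.29, -1.22 ± 0.29 and -0.46 ± 0.24. For Dbp the differences were 0.95 ± 0.18, 0.81 ± 0.23, 0.87 ± 0.21 and 0.48 ± 0.15. Hsp90aa1, the inducible Hsp90 of the cytosol, differed by -0.054 ± 0.15 in arterial cells and by -0.84 ± 0.20 in gCap cells, where its mean was 2.95 in CS and 6.10 in RA. The contrast of 0.79 ± 0.11 missed the threshold (adjusted p = 0.0548). Anxa2 differed by -0.33 ± 0.16 in venous cells, -0.44 ± 0.091 in gCap cells and -0.42 ± 0.19 in aerocytes, and its contrasts with arterial cells had adjusted p of 0.271, 0.0649 and 0.385. A p over the threshold does not show that the types were alike.

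**Figure D5:**
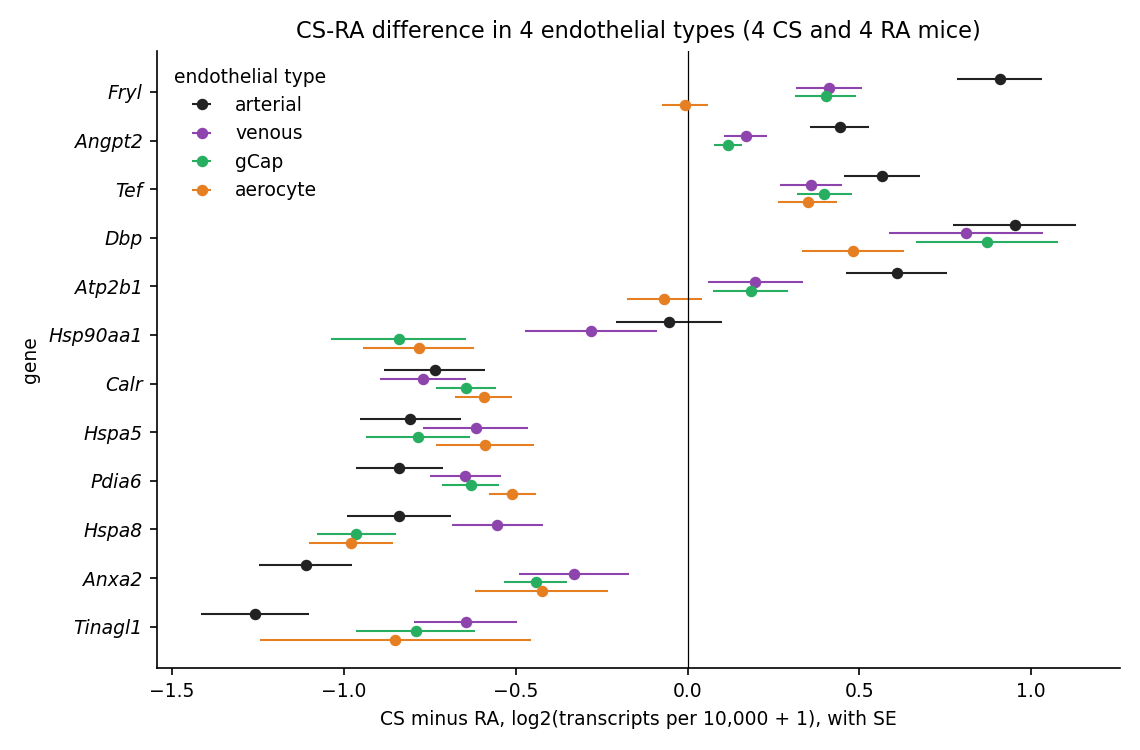
CS minus RA difference on the log2(transcripts per 10,000 + 1) scale, with SE, of 12 genes in arterial, venous, gCap and aerocyte cells (4 CS and 4 RA mice each); a type in which a gene was not tested has no point. Fryl stood at 0.91 in arterial cells and -0.0073 in aerocytes, while Hspa5, Calr and Pdia6 were below 0 in each type shown.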

How the data were processed

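Libraries were 10x Genomics 3′ (v3) from 8 mice. Per the labels and methods, the authors aligned reads with STAR 2.7.3a to GRCm38.p6 with eGFP and tdTomato added, counted UMIs from spliced and unspliced RNA, took out free RNA by SoupX, and gave clusters their type names. The deposited matrix is called normalized, but it holds estimated counts: UMI counts after free RNA removal, not scaled to depth, of which 1.28% are whole (within 1e-06). The mitochondrial percent is a deposited column.

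Multiplets and the cell cycle cluster were left out by the authors' names. No doublet caller was run. Cells were scaled to 10,000 transcripts and averaged per mouse with at least 20 cells. Genes found in at least 10% of cells of CS or RA mice were tested with limma 3.58.1 (trend, R 4.3.3) on log2(mean + 1), two-sided, with Benjamini-Hochberg adjustment at 0.05. No count model was used, since the values are not raw counts. Contrasts between types used each mouse's log2 difference, so that there the trend followed the mean difference between types. Shares used an exact permutation test over 70 assignments, with scipy 1.17.1. Gene coordinates came from GENCODE (GRCm38). k-means (k = 2, scikit-learn 1.9.0) used 10 components of 1000 variable genes.

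Named genes were Gja5, Dkk2 and Cxcl12; up to 15 called genes each way whose groups did not overlap; called members and the 4 highest members of each list; called contrasts; sex and reporter transcripts; and the 10 genes with the largest arterial ratio. Others were chosen after their values were seen: Atf4, Canx, Creld2, Ddit3, Dnajb11, Dnajc3, Eln, Herpud1, Hlf, Hsp90aa1, Malat1, Nos3, Nr3c1, Per1, Ptgs2, Xbp1, the called Esr1, Scn7a, Tuba1b, Tubb5 and Zbtb7c, and the genes that lead the k-means groups. Members and lists were chosen with earlier results of these data known. Alternatives were other pseudocounts (0.1 and 0.25), filters, scalings and cell subsets, lane or labelled sex as a term, and leaving out each mouse. The total over arterial cells was 332855 to 1087010 UMIs per mouse.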

Additional observations from a re-analysis of the deposited data

Results flagged for a closer look

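In groups of 4 mice, 8 of 100 groups of values examined had a mouse far from the other 3 by Dixon's criterion, which chance gives in about 1 of 20. The arterial share of CD45-negative cells was 2.42% in CS mouse 2, where the nearest CS mouse had 3.66%. Dbp was at 0.948 in RA mouse 4 against at most 0.344 in the other RA mice. Pde3a was at 9.56 in RA mouse 1, with the next at 14.9. Nr3c2 reached 5.01 in CS mouse 1, with the next at 3.93. Plaur reached 4.44 in RA mouse 1, with the next at 3.31. Sums of other cell types' markers stood out in 3 groups: the gCap sum of 34.1 in RA mouse 2 (next 25.9), the immune sum of 0.902 in CS mouse 2 (next 0.359) and the erythrocyte sum of 21.3 in RA mouse 1 (next 1.04).

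The CS minus RA difference was tested between cell types, and it was larger in arterial cells than in aerocytes for Fryl by 0.92 and for Atp2b1 by 0.68 on the log2 scale (limma, adjusted p = 0.0157 and 0.0352).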

How the results depend on the processing

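The 53 genes called kept their direction in every alternative in which they were tested. Their number was 2 with no filter on detection, 35 with lane as a block (31 of them among the 53), 26 in cells thinned to 2000 UMIs, 147 in cells with a transcript of Gja5, Dkk2 or Cxcl12, 3 in cells without Ptprc, Acta2, Col1a1 and Gpihbp1 (RA mouse 4 then has too few cells) and, chosen after seeing the data, 34 with 40 cells drawn per mouse and 49 (39 of them among the 53) without cells that held Scgb1a1, Sftpc, Ptprc or Hbb-bs. Leaving out a mouse gave 7 to 82 calls: 10 without CS mouse 1, 10 without CS mouse 2, 24 without CS mouse 3, 7 without CS mouse 4 and 82 without RA mouse 3. Of 748 values of single genes under an alternative, 521 stayed on their side of the threshold, 227 lost it and 0 reversed. The 521 include every value of Gja5, Dkk2 and Cxcl12, which were not called and so had no call to lose.

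Contrasts with venous cells had 0 calls throughout. With gCap cells there were 3 calls at a pseudocount of 0.25, 5 for genes found in 25% of cells, 2 with lane as a block, 1 in thinned cells and 0 to 16 without a mouse (16 without RA mouse 4). With aerocytes there were 0 at a pseudocount of 0.25, 0 in thinned cells, 3 with lane as a block, which changed no call of Fryl or Atp2b1, and 0 to 6 without a mouse (6 without RA mouse 3). Against all cells in place of CD45-negative cells, the arterial share differed by 1.35 percentage points, with an exact permutation p of 0.0286 in place of 0.0571. The share of endothelial cells had an exact p of 0.125, the smallest possible, by sign permutation within lanes (difference 2.69) and differences of 2.28 to 3.32 without a mouse. Its exact permutation p was 0.0571 without any 1 of the CS mice and 0.0286 without any 1 of the RA mice. Median UMIs differed by -843 to 177, above 0 only without RA mouse 4. By share of cells 1 of the 3 markers was highest in arterial cells, by mean level 3. Labelled sex goes against the sex transcripts in CS mice, so a sex term could not be relied on.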
